A study of Rattus norvegicus with 23 samples.

Results

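The sinoatrial node (SA) is the small region of the atrial wall in which the heartbeat starts, and the ventricles are the chambers that pump. Here 4 SA arrays were set against 7 arrays of the ventricles (V), 4 of the left ventricle (LV) and 3 of the right ventricle (RV), out of 23 single-color Agilent arrays of 6 regions of the rat heart and its great vessels. The rats were male Wistar animals, 8 to 11 weeks old, and no group received a treatment or carried an engineered allele according to the labels. An SA sample joined the tissue of 2 rats, V was a mass of LV or the RV free wall, and an LV was cut into 3 pieces, so that LV samples may share an animal. The methods count 12 rats for all regions, so LV and RV samples may share animals as well. SA was isolated separately, which took about 20 minutes, so region and dissection cannot be told apart. A level is log2(normalized signal + 1), with the highest probe of a gene taken on each array, and a difference is SA minus V on that scale. Of 16544 named genes, the 15692 above a level of 4 on at least 1 of the 11 arrays were fitted with limma. The 11910 of these that were well above background on all 4 SA arrays or on all 7 V arrays are described here and called members. A gene was said to rise or fall in SA at a Benjamini-Hochberg adjusted p below 0.05 over all fitted genes. Nothing in the labels says that samples of a group came from separate animals, so the p-values measure the spread between these samples, which may be technical.

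Cells of the node depolarize on their own. They use HCN channels and T-type calcium channels, keep developmental factors such as *Shox2* and *Tbx18*, and answer the vagus nerve through a muscarinic receptor and a G protein-gated potassium channel. Ventricular muscle beats when it is driven, burns mainly fatty acids, is fed by a dense capillary bed and uses its own myosin light chains.

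The promoters of 4 genes with large differences are printed to show the DNA at the start of genes that set the tissues apart. *Mybphl* (chr2:198693202-198693501, plus strand) and *Rab15* (chr6:101257034-101257333, minus strand) were higher in SA, and *Irx4* (chr1:31868040-31868339, minus strand) and *Myl3* (chr8:119616844-119617143, plus strand) were higher in V. Each is the RefSeq window of build GRCr8 from 250 bases before to 50 after the annotated start, read 5′ to 3′ along the gene. Capitals mark letters of a motif found on either strand.

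Mybphl: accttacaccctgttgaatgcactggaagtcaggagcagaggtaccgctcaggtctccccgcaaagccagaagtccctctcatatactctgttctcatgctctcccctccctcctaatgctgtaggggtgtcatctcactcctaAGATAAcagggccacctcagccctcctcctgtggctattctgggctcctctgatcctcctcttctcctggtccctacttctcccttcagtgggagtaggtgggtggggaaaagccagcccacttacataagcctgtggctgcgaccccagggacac

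Rab15: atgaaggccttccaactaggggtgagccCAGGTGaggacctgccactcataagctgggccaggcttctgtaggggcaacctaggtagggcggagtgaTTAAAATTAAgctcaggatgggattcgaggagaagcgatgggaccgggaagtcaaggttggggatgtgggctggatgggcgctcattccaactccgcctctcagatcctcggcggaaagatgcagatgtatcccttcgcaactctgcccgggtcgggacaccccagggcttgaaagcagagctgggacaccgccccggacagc

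Irx4: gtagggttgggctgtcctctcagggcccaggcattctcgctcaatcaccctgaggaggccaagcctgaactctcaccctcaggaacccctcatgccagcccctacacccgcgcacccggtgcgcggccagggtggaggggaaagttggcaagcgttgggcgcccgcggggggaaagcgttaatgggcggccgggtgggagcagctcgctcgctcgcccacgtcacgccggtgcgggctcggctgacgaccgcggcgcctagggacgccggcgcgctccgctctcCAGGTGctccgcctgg

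Myl3: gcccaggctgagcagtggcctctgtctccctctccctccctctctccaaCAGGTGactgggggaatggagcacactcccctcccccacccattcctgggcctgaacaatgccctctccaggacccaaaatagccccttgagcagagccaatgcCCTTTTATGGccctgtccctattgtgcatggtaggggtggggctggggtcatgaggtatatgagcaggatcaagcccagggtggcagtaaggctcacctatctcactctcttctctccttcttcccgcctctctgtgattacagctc

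Motifs of 7 kinds were searched on both strands, and the share of all 33469 promoters of this length that hold each is given as background. *Mybphl* held a GATA site, spelled AGATAA, at -106 from the gene start, and 11.6% of all promoters hold it. *Rab15* held an E-box, spelled CACCTG, at -222, *Irx4* held one at 35 and *Myl3* one at -201, and 18.8% of all promoters do. *Rab15* also held a MEF2 site at -153, which 3.29% of all promoters hold, and *Myl3* a CArG box, known as a site of serum response factor, at -97, which 1.64% hold. None of the 4 held a T-box site spelled GGTGTGA, present in 3.83% of all promoters. An NKE site, spelled TNAAGTG, was in none of them either and is present in 11.5%. The same was true of a TATA box, spelled TATAAA, present in 14.2%. A promoter was matched for 16 of the 24 genes with the largest differences, 8 in each direction. The E-box was in 2 of the 8 higher in SA and 3 of the 8 lower in SA. A match describes the letters and is no evidence of binding.

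The share of probes well above background was 60.1% to 76.0% on the SA arrays and 58.6% to 78.1% on the V arrays. It was lower in the second row of arrays on a slide, where 3 of 4 SA and 3 of 7 V arrays lay. By Spearman correlation over the fitted genes, every SA array was nearest to an SA array and every V array to a V array. RV replicate 2 stood apart from the other V arrays in several genes of atrial muscle, fat and Schwann cells, and the differences of such genes named below are also given without it.

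Of the members, 1702 rose in SA (14.3%) and 2242 fell (18.8%), so that 33.1% passed the test and 7966 members did not. The median difference over all members was -0.06. A difference over 1 was found for 482 members that rose and 521 that fell, and a difference over 3 for 88 and 46. A gene that was a member through 1 of the groups alone was high there by that rule, so that counts over members are descriptions. The shares called of each gene list below stand beside these shares of 14.3% and 18.8% over all members. Over all fitted genes 1817 rose (11.6%) and 2397 fell (15.3%). The larger number that fell depends on the scaling, since 2096 rose and 2035 fell after quantile normalization, and 2056 and 1843 with each array centred on its median. With the array row as a block 1584 rose and 2056 fell. Within the first row alone, with 1 SA array, the counts were 210 and 228, and within the second 804 and 1064.

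**Figure D1:**
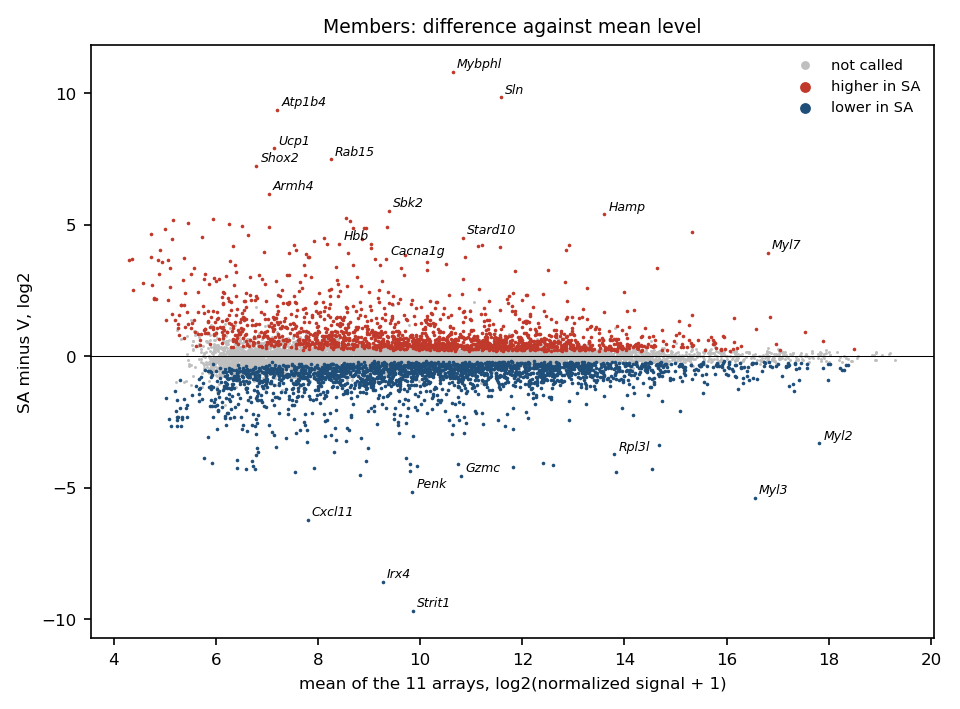
Difference between SA and V (y axis, log2) against the mean level of the 11 arrays (x axis) for the 11910 members. Red points rose and blue points fell in SA, and grey points did not pass the test. *Mybphl* at 10.80 and *Strit1* at -9.70 are the extremes of the fitted differences.

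Genes of atrial muscle were among the largest differences that rose and genes of ventricular muscle among those that fell. *Mybphl* encodes a myosin-binding protein of atrial muscle and the conduction system. It was 17.51, 17.52, 17.43 and 17.60 on the 4 SA arrays, and its V levels ran from 5.91 to 9.09 (median 6.49). SA was higher by 10.80 (standard error 0.51, limma adjusted p = 1.36e-07). The highest V level was that of RV replicate 2, and without it the difference was 11.20. *Sln* encodes sarcolipin, an inhibitor of the calcium pump of the sarcoplasmic reticulum. It was 18.07, 17.82, 17.84 and 17.65 in SA and ran from 6.44 to 10.66 (median 7.68) in V, a difference of 9.84 (limma adjusted p = 1.91e-06), or 10.28 without RV replicate 2.

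*Strit1* encodes DWORF, a small protein that activates the same pump. Its SA levels of 3.50, 3.97, 3.85 and 3.45 were not well above background on any array, and its V levels ran from 13.02 to 13.73 (median 13.42). It was therefore at least 471-fold higher in V (limma adjusted p = 3.51e-11), a bound that takes on each SA array the higher of the gene's own level and the lowest signal well above background there. *Irx4*, a homeobox factor of ventricular muscle, was 3.62, 4.25, 3.49 and 3.88 in SA, again not well above background on any array, and ran from 12.21 to 12.62 (median 12.37) in V. It was at least 224-fold higher in V (limma adjusted p = 3.51e-11). *Myl3*, the ventricular essential light chain, could be measured on all arrays. It was 13.01, 13.31, 13.25 and 12.94 in SA and ran from 18.30 to 18.70 (median 18.53) in V, a difference of -5.39 (limma adjusted p = 2.77e-10).

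These differences were also present within each row of arrays. For *Mybphl* the difference was 11.06 in the first row and 10.47 in the second. For *Myl3* it was -5.25 and -5.39.

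Other genes among the 12 largest differences that rose were of several kinds. *Atp1b4*, a muscle protein related to the beta subunits of the sodium pump, was 13.05 to 13.23 in SA, with 1 of 7 V arrays well above background, and rose by 9.35, or by 8.73 with the dim V arrays raised as in the bound above. *Rab15*, a small GTPase of endosomal traffic, was 12.96 to 13.05 in SA and 4.60 to 6.47 in V and rose by 7.48. *Sbk2*, a kinase gene, rose by 5.51. In the left atrium (LA), whose arrays did not enter the fit, the mean levels were 11.94 for *Atp1b4*, 12.64 for *Rab15* and 13.91 for *Sbk2*. *Armh4* rose too, with 3 of 7 V arrays well above background. *Tex26*, with 1 of 7, rose by 5.21, or by 4.78 with the dim arrays raised.

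*Hamp* encodes hepcidin, the peptide that limits iron export from cells. It was 17.27, 16.67, 17.01 and 17.17 in SA and ran from 10.88 to 12.30 (median 11.62) in V, a difference of 5.38 (limma adjusted p = 1.07e-07). Its mean level was 13.47 in LA and 16.77 in the pulmonary vein (PV). *Car3*, a carbonic anhydrase of muscle and fat, rose by 5.23 (limma adjusted p = 0.0031). It was 10.77 on RV replicate 2, and the difference was 5.92 without that array.

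Among the 12 largest differences that fell were *Zmiz2*, a coactivator of transcription, and *Gpsm1*, a modulator of G proteins. *Zmiz2* was 10.98 to 11.08 in SA and 15.20 to 15.67 in V (-4.39, limma adjusted p = 6.75e-10). *Gpsm1* was 11.69 to 11.95 in SA and 15.76 to 16.35 in V (-4.28, limma adjusted p = 4.08e-09). The ranges were narrow in both tissues, and each of these genes, like *Strit1*, *Irx4* and *Hamp*, rests on 1 probe. *Cyp11a1*, the enzyme that starts steroid synthesis, fell by 4.54 and *Fam81a* by 4.43, with 2 and 1 of 4 SA arrays well above background, and with the dim arrays raised the differences were -4.54 and -4.30. *Penk*, the gene of the enkephalin precursor, was 6.38 to 6.83 in SA and fell by 5.16 (limma adjusted p = 0.0057). Its mean was 13.61 in LV and 9.21 in RV.

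**Figure D2:**
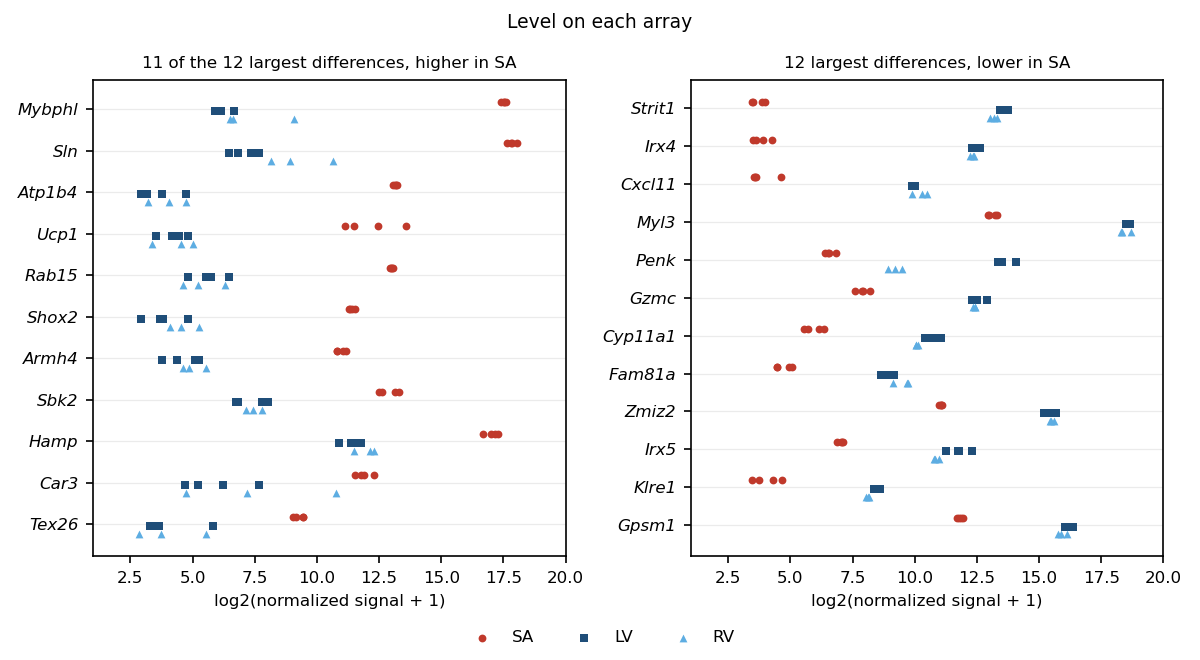
Level of 11 of the 12 genes with the largest rise and the 12 with the largest fall in SA on each SA, LV and RV array (x axis, log2(normalized signal + 1)). The genes were chosen among those whose SA and V arrays do not overlap. The triangle at 9.09 for *Mybphl* is RV replicate 2.

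Pacemaker channels and node markers mostly rose. Of 11 members, 9 rose (81.8%) and 1 fell (9.09%), with a median of 2.01, beside 14.3% of all members that rose. Of the 10 well above background on all 11 arrays, 8 rose. *Cacna1g*, a T-type calcium channel, was 12.01, 11.60, 11.58 and 11.58 in SA and ran from 7.33 to 8.35 (median 8.10) in V, a difference of 3.71 (limma adjusted p = 1.95e-07). The groups did not overlap. *Hcn4*, the HCN channel most used to mark the node, differed by less. It was 10.58, 10.27, 10.23 and 10.27 in SA and ran from 8.60 to 10.05 (median 9.70) in V, a difference of 0.79 (limma adjusted p = 0.0259). The call was lost with the array row as a block (0.69, adjusted p = 0.0578), with the slide as a block (adjusted p = 0.0712) and with any 1 SA array left out (adjusted p = 0.0501 to 0.0793).

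*Hcn2* went the other way, with 6.09 to 6.66 in SA and 7.72 to 8.24 in V (-1.63, limma adjusted p = 4.5e-06). *Kcnj3* and *Kcnj5*, the subunits of the potassium channel that acetylcholine opens, rose by 2.55 and 2.10. *Vsnl1*, a calcium sensor, rose by 4.91, and its V levels differed by chamber, with means of 6.53 in LV and 8.95 in RV. The connexin gene *Gjc1* did not pass the test (0.03). The calcium channel gene *Cacna1d* was not analysed here.

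Transcription factors of the node and atria rose as well. Of 8 members, 6 rose (75%) and 0 fell, with a median of 1.21, where 14.3% of all members rose. On all 11 arrays 6 were well above background, and 4 of these rose. The median over these 6 was 0.79. *Shox2*, a homeobox factor that holds off the working muscle program in the node, was 11.34, 11.55, 11.30 and 11.43 in SA. No V array had it well above background, which makes it at least 124-fold higher in SA (limma adjusted p = 2.04e-07). Its mean was 7.90 in LA and 11.03 in PV. *Tbx5* rose by 2.14, *Nr2f2*, a factor of atrial identity, by 1.67 and *Tbx18* by 1.38. Other factors known from the node gave no call. *Tbx3* was 10.64 to 10.87 in SA and 9.82 to 10.73 in V, a difference of 0.28 (limma adjusted p = 0.237), and its probes gave 0.28 and 0.98. *Isl1* was well above background on 1 of 4 SA arrays and on no V array, so it was not a member.

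Of the ventricular and general cardiac factors, 3 of 12 members fell (25%) and 2 rose (16.7%), near the shares over all members. Of the 10 well above background on all 11 arrays, 1 fell. *Irx5*, a relative of *Irx4*, was 6.89 to 7.11 in SA and 10.77 to 12.32 in V (-4.36, limma adjusted p = 1.13e-06). *Irx2* was well above background on 1 of 4 SA arrays and fell by 3.48, or by 3.22 with the dim arrays raised. *Tbx20* rose by 0.81 and *Hopx* by 2.81, although the probes of *Hopx* gave 0.26 and 2.81. *Nkx2-5*, which acts throughout heart muscle, did not pass the test (-0.14).

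Genes of atrial muscle rose. Of 12 members, 8 rose (66.7%) and 0 fell, with a median of 1.47, again beside 14.3% of all members. *Myl7*, the atrial regulatory light chain, was 19.22, 19.47, 19.25 and 19.26 in SA and ran from 13.99 to 16.34 (median 15.57) in V, a difference of 3.92 (limma adjusted p = 4.55e-05). *Stard10*, a lipid transfer gene, averaged 13.71 in SA and 9.21 in V and rose by 4.50 (limma adjusted p = 1.89e-09). *Nppa*, the gene of atrial natriuretic peptide, was 18.62, 18.23, 18.11 and 18.27 in SA. In V its means were 15.58 in LV and 10.96 in RV, and the difference was 4.71 (limma adjusted p = 0.0146). With the slide as a block that call was lost (4.15, adjusted p = 0.0504). *Myl4*, the atrial essential light chain, did not pass the test, with means of 17.86 in SA and 17.81 in V.

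The ventricular muscle list was divided. Of 14 members, 3 rose (21.4%) and 6 fell (42.9%), with a median of -0.10. *Myl2*, the ventricular regulatory light chain, was 15.90, 15.74, 15.70 and 15.46 in SA and ran from 18.76 to 19.22 (median 19.06) in V, a difference of -3.32 (limma adjusted p = 1.41e-08), and its probes gave -5.42 and -3.32. *Rpl3l*, a ribosomal protein of striated muscle, fell by 3.73 and *Fhl2*, a LIM protein of the sarcomere, by 3.39. The genes of this list that rose were *Smpx* (1.70), *Ankrd1* (1.04), a stretch-responsive protein, and *Lrrc10* (0.60). The myosin heavy chains *Myh6* and *Myh7* did not pass the test, at 0.06 and -0.07.

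Some genes differed from LV and RV in opposite directions. *Nppb*, the gene of brain natriuretic peptide, averaged 14.86 in SA, 16.29 in LV and 13.04 in RV. Its difference was -0.04 against V, -1.43 against LV (limma adjusted p = 0.00977) and 1.82 against RV (adjusted p = 0.00206). *Kcnd2*, a channel of the transient outward current, averaged 9.99, 9.42 and 11.02. It differed by 0.57 from LV (limma adjusted p = 0.00845) and by -1.03 from RV (adjusted p = 0.00103).

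The sarcomere list was called about as often as all members. Of 25 members, 5 rose (20%) and 4 fell (16%), beside 14.3% and 18.8% of all members, with a median of 0.01. The light chain genes *Myl7*, which rose, and *Myl2* and *Myl3*, which fell, are counted there. *Csrp3*, a Z disc protein, rose by 0.93, *Ldb3* by 0.79 and *Tcap* by 0.57, and the skeletal actin gene *Acta1* fell by 0.86. The probes of *Ldb3* gave 0.21 and 0.79. Of the calcium handling list, with 21 members, 6 rose (28.6%) and 4 fell (19.0%), the latter share close to the 18.8% of all members. The number that fell was 2 when either SA replicate 2 or SA replicate 3 was left out. *Pln*, the gene of phospholamban, the pump's main inhibitor in the ventricle, was 16.43 to 16.72 in SA and 17.30 to 17.92 in V (-1.12, limma adjusted p = 0.000115). Of the small regulators of the pump, *Sln* was thus higher in SA and *Pln* and *Strit1* were lower. The pump gene *Atp2a2* did not pass the test (0.14), though it did after quantile normalization (0.25, adjusted p = 0.0234). The release channels *Ryr2* and *Itpr1* rose by 0.38 and 1.01.

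Ion channels of working muscle moved both ways. Of 23 members, 8 rose (34.8%) and 6 fell (26.1%), beside 14.3% and 18.8% of all members. *Scn4b*, a sodium channel subunit, fell by 1.51 and *Kcnip2*, a partner of the transient outward channel, by 1.07. *Kcnj12* rose by 1.32 and *Kcnh2* by 0.92. *Gja1*, the connexin of working muscle, did not pass the test (-0.40, limma adjusted p = 0.0596), but did with the replicate number as a block (-0.36, adjusted p = 0.0499), with SA replicate 2 left out (adjusted p = 0.0314) and with LV replicate 4 left out (adjusted p = 0.0424). Of 8 gap junction and disc members, *Dsc2* rose by 1.13 and *Cdh2* and *Pkp2* fell by 0.62 and 0.44.

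Of the autonomic receptors and their signalling genes, 4 of 21 members rose (19.0%) and 8 fell (38.1%). The muscarinic receptor gene *Chrm2* was 11.05, 11.40, 11.45 and 11.40 in SA and ran from 9.90 to 10.68 (median 10.29) in V, a difference of 1.07 (limma adjusted p = 0.000411). *Gnao1*, a G protein subunit, rose by 2.92, and *Rgs6*, which shortens such G protein signals, by 0.97. The adrenergic receptor genes *Adra1d* and *Adra1a* fell by 1.30 and 0.83. *Adrb1*, the main beta receptor of the heart, did not pass the test (0.05).

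**Figure D3:**
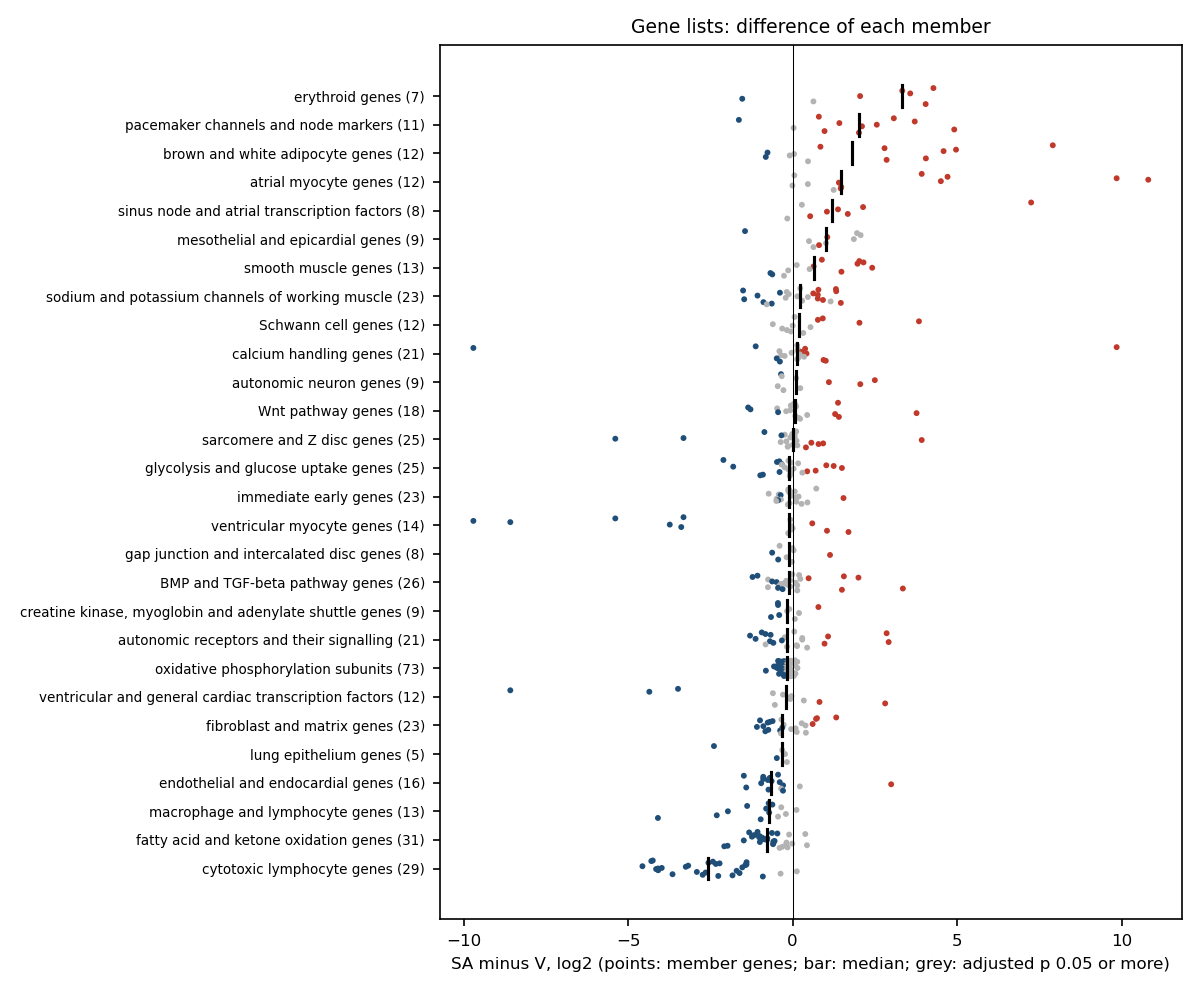
Difference between SA and V (x axis, log2) of each member of 28 gene lists, with the number of members in brackets and a black bar at the median. Red points rose, blue points fell and grey points did not pass the test. Medians run from 3.33 for erythroid genes to -2.56 for cytotoxic lymphocyte genes.

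Genes of fatty acid and ketone oxidation fell in SA. Of 31 members, 22 fell and 0 rose, with a median of -0.77, beside 18.8% of all members that fell. *Fabp3*, the fatty acid binding protein of heart muscle, was 16.50, 16.38, 16.39 and 16.60 in SA and ran from 17.65 to 17.95 (median 17.77) in V, a difference of -1.32 (limma adjusted p = 5.68e-07). *Acadm*, the medium-chain dehydrogenase, fell by 1.24, and *Slc25a20* and *Cpt2*, which bring acyl groups into mitochondria, by 1.22 and 1.16. *Bdh1*, an enzyme of ketone use, fell by 2.08 and *Cd36*, a fatty acid carrier, by 1.07. *Cpt1b* (-0.11), *Oxct1* (-0.32) and *Pdk4* (0.43) did not pass the test. With RV replicate 2 left out 23 fell, with the row as a block 22, with centring 21 and against RV alone 18.

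**Figure D4:**
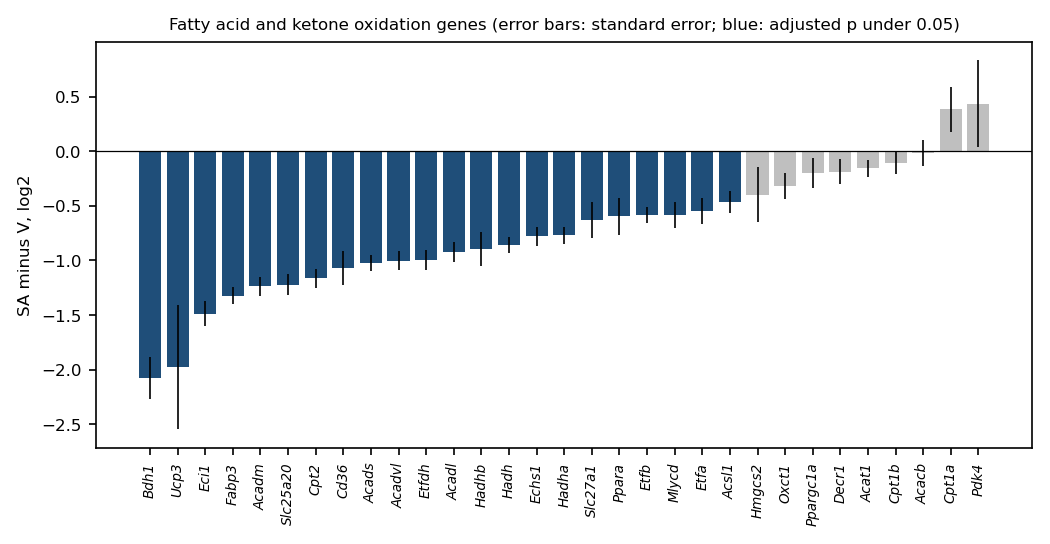
Difference between SA and V (y axis, log2) of the 31 members of the fatty acid and ketone oxidation list, with the standard error of the limma fit. Blue bars fell and grey bars did not pass the test. The 22 blue bars run from *Bdh1* at -2.08 to *Acsl1* at -0.47.

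Oxidative phosphorylation differed by less. Of 73 members, 27 fell (37.0%) and 0 rose, with a median of -0.18, beside 18.8% of all members that fell. *Ndufs7*, a subunit of complex I, was 15.69 to 15.82 in SA and 16.24 to 16.40 in V (-0.57, limma adjusted p = 6.62e-05). The count was 11 with centring, 14 with the row as a block and 6 against RV alone. It was 15 without SA replicate 1, 14 without each of the other SA arrays and 16 without LV replicate 3, so it depends on these choices. Of the glycolysis and glucose uptake list, 5 of 25 members rose (20%) and 8 fell (32.0%). *Slc2a1*, a glucose carrier, fell by 2.10 and *Pfkp*, a phosphofructokinase, rose by 1.02. *Ckb*, the brain-type creatine kinase, rose by 0.78, whereas the muscle type *Ckm* fell by 0.45.

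Genes of cytotoxic lymphocytes were a large group that fell. *Gzmc*, *Klre1* and the chemokine gene *Cxcl11*, which draws such cells, were among the 12 largest differences that fell, and a list of 34 genes of these cells was written after the values were seen. Of its 29 members 27 fell and 0 rose, with a median of -2.56, or -2.26 with dim genes at their bound. Of these members 14 were dim on at least 1 SA array and entered only through V, where they were high. Of the 15 well above background on all 11 arrays, 13 fell and 0 rose. *Cxcl11* was 3.60, 4.63, 3.52 and 3.56 in SA, with 1 of 4 arrays well above background, and ran from 9.88 to 10.50 (median 9.96) in V. The measured difference was -6.24 (limma adjusted p = 1.41e-08), or -5.39 with the dim arrays raised in the same way as for *Strit1*. *Gzmc*, a granzyme, was 8.18, 7.88, 7.61 and 7.93 in SA and ran from 12.31 to 12.92 (median 12.43) in V, a difference of -4.56 (limma adjusted p = 5.09e-09). *Nkg7*, a granule protein, was 8.53, 8.24, 7.88 and 7.89 in SA and ran from 11.97 to 12.46 (median 12.26) in V (-4.09, limma adjusted p = 1.41e-08). The arrays of SA and V did not overlap for either gene. *Prf1*, the gene of perforin, fell by 3.98 and the chemokine gene *Ccl5* by 4.15, and *Klrd1*, a natural killer receptor that no SA array had well above background, was at least 10.4-fold higher in V. *Runx3* (-0.37) and *Tbx21* (0.13) did not pass the test. *Tbx21* averaged 15.83 in SA and 15.71 in V, above *Gzmc* in both tissues. Whether its signal comes from lymphocytes was not tested.

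Other leukocyte genes fell by less. Of 13 members, 0 rose and 9 fell (69.2%), with a median of -0.73, and *Nkg7* is on both lists. *Ptprc*, which all leukocytes carry, was 8.02 to 8.46 in SA and 10.05 to 10.42 in V (-1.97, limma adjusted p = 5.9e-07), and the macrophage gene *Cd68* fell by 0.73. The summed signal of this list was 14824 to 19346 in SA and 24428 to 41652 in V. Since the arrays measure bulk tissue, fewer cells of a type and less RNA per cell cannot be told apart.

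Endothelial genes fell too. Of 16 members, 1 rose (6.25%) and 13 fell (81.2%), beside 18.8% of all members that fell, with a median of -0.67 and a summed signal of 80166 to 86385 in SA and 118256 to 153465 in V. *Cdh5*, the endothelial cadherin, was 9.21, 9.44, 9.38 and 9.51 in SA and ran from 10.58 to 11.14 (median 10.89) in V, a difference of -1.48 (limma adjusted p = 8.89e-06). *Npr3*, a natriuretic peptide receptor of endocardium, was the exception, with 10.43 to 10.91 in SA and 7.16 to 8.12 in V (2.99, limma adjusted p = 1.05e-06). With the row as a block 10 of the list fell, with centring 9 and against RV alone 7.

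Genes of red cells rose. Of 7 members, 5 rose (71.4%) and 1 fell (14.3%), with a summed signal of 107806 to 203671 in SA and 9856 to 23059 in V. *Hbb* was 11.53, 10.52, 11.20 and 11.31 in SA and ran from 5.82 to 7.71 (median 6.82) in V, a difference of 4.28 (limma adjusted p = 8.54e-06). *Hba-a1* rose by 3.33 and *Alas2*, the enzyme that starts heme synthesis in red cells, by 2.05. *Slc4a1*, the anion exchanger of red cells, fell by 1.53. Hearts had been perfused to wash out most of the blood. The part of remaining blood in the other differences was not tested.

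Several fat genes were higher in SA. Of 12 members, 7 rose (58.3%) and 2 fell (16.7%), but 6 of the members were dim on at least 1 V array and entered only through SA. Of the 6 well above background on all 11 arrays, 1 rose and 2 fell. *Ucp1*, the uncoupling protein of brown fat, was 11.49, 13.60, 11.15 and 12.46 in SA and ran from 3.38 to 5.04 (median 4.46) in V, where 3 of 7 arrays were well above background, and it rose by 7.90 (limma adjusted p = 7.11e-07), or by 7.48 with the dim arrays raised. Its mean was 5.44 in LA, 10.31 in PV and 12.51 in the pulmonary artery. *Adipoq*, the gene of adiponectin, rose by 4.96 and *Retn* by 4.58, or by 5.47 and 5.00 without RV replicate 2. With the dim V arrays raised the differences were 4.68 and 4.43. *Lpl* and *Fabp4*, which muscle and capillaries also express, fell by 0.82 and 0.76. Without SA replicate 1, 2 or 3 or LV replicate 4, 1 of the list fell, and the call of *Fabp4* was lost with the slide as a block (adjusted p = 0.0856). The summed signal of the list overlapped, at 43109 to 59429 in SA and 50923 to 66712 in V. The part of fat near the node in the other differences was not tested.

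Nerve and smooth muscle genes rose in part. Of the Schwann cell list, 4 of 12 members rose (33.3%) and 0 fell, or 1 without RV replicate 2 or LV replicate 1. *Mbp*, a myelin protein, was 12.25, 12.04, 12.22 and 12.06 in SA and ran from 7.24 to 9.32 (median 8.31) in V, a difference of 3.84 (limma adjusted p = 7.67e-06). Without RV replicate 2 the difference of *Mbp* was 4.01. *S100b* rose by 2.03, or 2.28 without RV replicate 2, and *Sox10*, the factor that defines the lineage, did not pass the test (0.06). Of 9 autonomic neuron members, *Gap43* rose, as did *Npy* by 2.50 and *Uchl1* by 2.05, and *Dbh* fell by 0.35, a call lost without SA replicate 1, 3 or 4, with the array row as a block (adjusted p = 0.0616), with the replicate block (adjusted p = 0.0701), with centring (adjusted p = 0.061) and after quantile normalization (adjusted p = 0.0669). Of the smooth muscle list, 7 of 13 members rose (53.8%) and 2 fell (15.4%), led by *Actg2* (2.42), *Tagln* (2.15) and *Myh11* (2.02). Summed signals were 14051 to 15212 in SA and 9001 to 13132 in V, or up to 12039 in V without RV replicate 2, for Schwann cells and 119718 to 153189 in SA and 105693 to 126005 in V for smooth muscle.

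**Figure D5:**
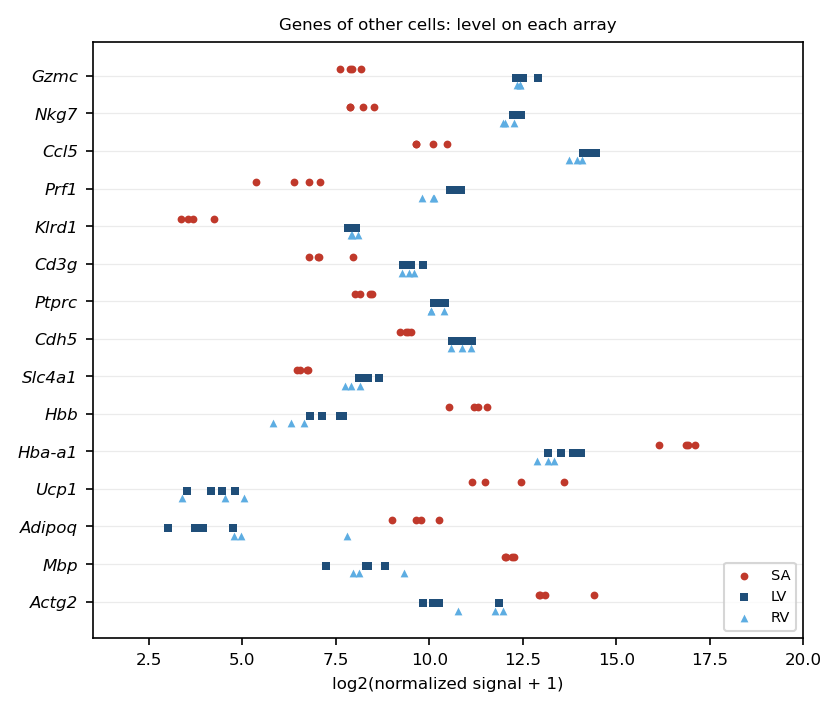
Level of 15 genes of lymphocytes, endothelium, red cells, fat, Schwann cells and smooth muscle on each of the 11 arrays (x axis, log2(normalized signal + 1)). *Gzmc* and *Cdh5* are higher on all V arrays, and *Hbb*, *Ucp1* and *Mbp* are higher on all SA arrays.

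Fibroblast and matrix genes were divided. Of 23 members, 4 rose (17.4%) and 10 fell (43.5%), beside 14.3% and 18.8% of all members. With SA replicate 2 or SA replicate 4 left out 2 rose, and against RV alone 1 rose and 4 fell. *Col1a1*, a fibrillar collagen, was 15.40 to 16.36 in SA and 14.10 to 15.10 in V (1.32, limma adjusted p = 0.00137), whereas *Tcf21* and *Pdgfra*, which mark resident fibroblasts, fell by 1.09 and 0.89. Of 9 mesothelial members 2 rose and 1 fell, with a median of 1.02. Of the 5 that were well above background on all 11 arrays, 1 rose and 1 fell. *Lrrn4* rose by 1.05 and *Wt1*, a factor of the epicardium, fell by 1.45, while *Msln* (2.06), *Upk1b* (1.95) and *Krt19* (1.86) did not pass the test. The number that rose was 6 with normexp background correction and 6 against LV alone, and ran from 1 to 5 with 1 array left out, where the highest was without RV replicate 1. Of 5 lung epithelium members 2 fell, or 1 without SA replicate 1, with *Sftpc*, a surfactant gene, at -2.39. Of 23 immediate early genes, which respond to handling of tissue, 1 rose and 2 fell, or 4 without LV replicate 1 and 1 without SA replicate 4.

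Among signalling genes, a few secreted factors stood out. *Sfrp1*, a secreted inhibitor of Wnt signals, was 13.20, 13.33, 13.24 and 13.29 in SA and ran from 9.10 to 9.82 (median 9.57) in V, a difference of 3.76 (limma adjusted p = 1.63e-08), and its probes gave 1.71 and 3.94. *Wnt11*, a Wnt ligand, fell by 1.35. Of all 18 Wnt members, 4 rose (22.2%) and 3 fell (16.7%). Of 26 BMP and TGF-beta members, 5 rose (19.2%) and 6 fell (23.1%). Both lists lie near the 14.3% and 18.8% of all members. The ligand gene *Bmp7* rose by 1.56 and *Tgfb1* fell by 1.22.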

How the data were processed

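RNA of 23 rat samples was labelled with Cy3 and hybridized to Agilent SurePrint G3 arrays, 1 array per sample on 3 slides. Per the file headers, the authors read intensities with Agilent Feature Extraction 11.0.1.1, subtracted background and detrended, and the deposited normalized intensity was scaled to the 90th percentile of each array. Of 45596 probes, 156 with a missing value were dropped, and 21047 of the 45440 kept were named through RefSeq accessions, which gave 16544 genes. The authors' deposited values were turned into log2(intensity + 1), and the highest probe per gene was kept on each array. Deposited scanner flags gave the spots well above background, no spot was saturated, and the number of arrays limits the precision. SA and V were compared with limma 3.58.1 in R 4.3.3 without covariates, and p-values were adjusted by Benjamini-Hochberg. On data simulated for this comparison over 15692 genes, 20% of genes changed by 0.5, 56% changed by 1 and 82% changed by 2 were recovered.

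Named genes were the 12 members with the largest called difference in each direction without overlap, up to 4 called members per list and direction, and a set of core genes. A few further list members, such as *Fhl2*, *Acadm*, *Cpt2*, *Sox10* and *Tbx21*, were chosen after their values were seen. The members and lists were chosen with earlier results of these data known. Alternatives covered scaling, background, probe choice, filters, samples in the fit, blocks and each array left out. Probes without a RefSeq symbol stayed unnamed, and a few named genes are not reported here.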

Additional observations from a re-analysis of the deposited data

Results flagged for a closer look

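A sample far from the others of its group was looked for in each of the 201 named genes, by the gap to the nearest other sample divided by the range of the group and set against Dixon's critical value for 4 or 7 samples. In 30 cases a sample stood apart. Chance gives about 1 in 20 groups, and 2 groups were looked at for each gene. By array, 7 lay on SA1, 6 on SA2, 6 on RV2 and 3 on SA4, 2 each on LV4 and RV1, and 1 each on LV2, LV3, RV3 and SA3.

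*Adipoq* was 7.79 on RV2, against 3.02 to 4.97 on the other V arrays. *Kcnn3* was 8.96 on RV2, against 9.37 to 9.68 on the other V arrays. *Klrb1a* was 7.92 on RV2, against 7.05 to 7.33 on the other V arrays. *Mybphl* was 9.09 on RV2, against 5.91 to 6.65 on the other V arrays. *Retn* was 7.48 on RV2, against 4.11 to 5.07 on the other V arrays. *S100b* was 8.19 on RV2, against 6.25 to 6.75 on the other V arrays.

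*Adra1a* was 9.97 on RV1, against 9.23 to 9.51 on the other V arrays. *Adrb3* was 3.81 on LV3, against 4.89 to 5.39 on the other V arrays. *Gzmc* was 12.92 on LV4, against 12.31 to 12.50 on the other V arrays. *Lpl* was 14.21 on RV3, against 14.53 to 14.71 on the other V arrays. *Npy* was 8.36 on LV2, against 6.71 to 7.28 on the other V arrays. *Tbx5* was 4.96 on LV4, against 5.84 to 6.38 on the other V arrays. *Tcap* was 17.32 on RV1, against 17.65 to 17.82 on the other V arrays.

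*Actg2* was 14.41 on SA4, against 12.95 to 13.09 on the other SA arrays. *Ager* was 10.23 on SA1, against 10.48 to 10.52 on the other SA arrays. *Bmp7* was 7.31 on SA4, against 7.42 to 7.42 on the other SA arrays. *Cacna1g* was 12.01 on SA1, against 11.58 to 11.60 on the other SA arrays. *Chrm2* was 11.05 on SA1, against 11.40 to 11.45 on the other SA arrays. *Cxcl11* was 4.63 on SA2, against 3.52 to 3.60 on the other SA arrays. *Hba-a2* was 11.69 on SA2, against 12.60 to 12.73 on the other SA arrays. *Hcn4* was 10.58 on SA1, against 10.23 to 10.27 on the other SA arrays. *Isl1* was 4.49 on SA2, against 3.46 to 3.62 on the other SA arrays. *Myl7* was 19.47 on SA2, against 19.22 to 19.26 on the other SA arrays. *Ncr3* was 7.89 on SA1, against 5.55 to 5.85 on the other SA arrays. *Pln* was 16.72 on SA1, against 16.43 to 16.46 on the other SA arrays. *Rpl3l* was 11.65 on SA2, against 11.31 to 11.37 on the other SA arrays. *Sh2d1a* was 2.74 on SA2, against 3.51 to 3.52 on the other SA arrays. *Tagln* was 13.60 on SA4, against 12.86 to 12.93 on the other SA arrays. *Tgfbr1* was 9.34 on SA1, against 9.51 to 9.53 on the other SA arrays. *Ucp3* was 6.07 on SA3, against 8.68 to 8.83 on the other SA arrays.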

How the results depend on the processing

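Over all fitted genes, 1817 rose and 2397 fell in SA. With each array left out in turn, the number that rose ran from 1469 without SA replicate 3 to 1838 without RV replicate 2, and the number that fell from 1933 without SA replicate 4 to 2420 without RV replicate 2. Counts moved by over 1.5 times in several fits on fewer arrays and with every probe as a feature, but not against LV only, where they were 1764 and 2168. They were 1128 and 1474 against RV only, 804 and 1064 in the second array row only, 210 and 228 in the first array row only, 210 and 215 on slide 3 only, and 0 and 0 on slide 1 only and slide 2 only, where limma gave 2805 and 2179 genes at an unadjusted p below 0.05. These fits hold 1 or 2 arrays of a group in several cases, and a lone array is assumed to vary like the others. With every probe as a feature, 3230 rose and 3703 fell out of 41819. In the other 17 alternatives, which left out no array, both counts stayed within 1.5 times. The share of called genes that rose was 43.1% in the main fit and 52.7% with centring.

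Same-numbered SA and V arrays correlated between -0.145 and 0.295 in their deviations from the group means. Arrays with different numbers correlated between -0.256 and 0.306. Deviations from means of so few arrays cannot decide whether replicate numbers pair the samples, and LV was not set against RV. With the replicate block 1638 rose and 2164 fell.

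Of the 201 named genes 187 were called. Leaving out an array ended the call of 17, and other settings that kept both ventricles and all rows and slides ended that of 22. *Kcnd2* changed sign against LV only (0.57) and *Nppb* against RV only (1.82). *Hcn4*, *Aldh1a2*, *Col3a1*, *Dbh*, *Fzd7* and *Itpr2* were among those that lost their call in several settings. Of the 14 named genes that were not called, 5 passed the test in at least 1 setting, among them *Gja1* in 7 and *Atp2a2* after quantile normalization. Among the calls ended by the replicate block were those of *Aldh1a2*, *Col3a1* and *Dbh*, and it gave one to *Gja1*. The cause of these changes was not tested. Signals not well above background limit low genes, whose fitted differences are at least as large as the bounds given for them.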
